A study of Mus musculus with 7 samples.

Results

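The TAM receptors Axl, Mertk and Tyro3 and their ligands Gas6 and Pros1 were described in retinal microglia (rMG) of mice lacking Irf8. These members were taken as the rows of the deposited expression table whose gene symbol is one of the 5 names, and all 5 were found among 40743 listed genes. The study sorted rMG from adult mice with and without laser-induced injury, a model of choroidal neovascularisation, and sequenced their RNA. Both groups carried Irf8-/- together with Cx3cr1GFP/+, in which GFP replaces 1 copy of Cx3cr1, on a C57BL/6J background without the Crb1 mutation, so the comparison held no library with intact Irf8. The unlasered group had 3 libraries and the lasered group had 4 libraries, made 7 days after 3 to 6 laser spots per eye. Each library came from cells pooled from 3 to 4 mice and sorted as CD45low CD11b+ Cx3cr1GFP/+ Ly6C- Ly6G-, with 10000 cells on average. Only the central 70% of the lasered retinae was used, and no such restriction is stated for the unlasered retinae, so the laser and any difference in the retinal area sampled cannot be told apart. Wild-type libraries were not analysed here.

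TAM receptors are receptor tyrosine kinases that bind apoptotic cells through a bridge. Gas6 and protein S, the product of Pros1, hold phosphatidylserine on the dying cell with a vitamin K dependent Gla domain and bind the receptor with their other end. In the retina the family is best known for the daily uptake of photoreceptor outer segments, which needs MERTK in the pigment epithelium, and in microglia and macrophages it serves uptake of dead cells and the damping of inflammatory signalling. AXL is often the inducible receptor in macrophages and MERTK the steady-state one.

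All 5 genes are annotated as protein-coding on GRCm38. Axl (ENSMUSG00000002602) lies on the minus strand of chromosome 7 from 25757273 to 25788705. Mertk (ENSMUSG00000014361) lies on the plus strand of chromosome 2 from 128698956 to 128802894, and Tyro3 (ENSMUSG00000027298) lies on the same chromosome and strand from 119797733 to 119818104. The ligand genes are on other chromosomes, Gas6 (ENSMUSG00000031451) on the minus strand of chromosome 8 from 13465374 to 13494490 and Pros1 (ENSMUSG00000022912) on the plus strand of chromosome 16 from 62854307 to 62929346. None of the 5 had reads listed jointly with another gene. The exons of Gas6 overlap those of Tmem255b on the other strand. The library kit does not keep strand, so reads of the overlap cannot be told apart. The Tmem255b level was 119 ± 8.04 CPM without laser (SD, n = 3) and 125 ± 13.3 CPM after laser (SD, n = 4), where CPM are the reads of a gene over all reads of its library on a common scale.

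The 250 bases before the RefSeq start site (GRCm38.p6, 5′ to 3′ on the strand of the gene) are shown for Axl, the member that changed after laser, and for Mertk, the receptor with the highest mean level per kilobase, with the GC box GGGCGGG or its reverse complement in capitals. The Axl window is chr7:25788734-25788983 and the Mertk window is chr2:128698665-128698914.

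Axl: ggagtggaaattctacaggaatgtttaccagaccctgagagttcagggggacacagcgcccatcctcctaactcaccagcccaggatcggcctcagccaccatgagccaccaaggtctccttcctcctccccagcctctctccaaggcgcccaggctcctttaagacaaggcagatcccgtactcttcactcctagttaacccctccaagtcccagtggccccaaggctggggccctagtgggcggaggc

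Mertk: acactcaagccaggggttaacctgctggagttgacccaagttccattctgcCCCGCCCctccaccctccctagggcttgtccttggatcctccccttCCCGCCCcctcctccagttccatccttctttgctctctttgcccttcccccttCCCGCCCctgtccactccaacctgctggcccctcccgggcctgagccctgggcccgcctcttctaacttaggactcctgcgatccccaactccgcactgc

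The Mertk window held 3 matches to GGGCGGG and the Axl window held 0, although 60% of its bases were G or C against 63.6% for Mertk. The shorter string GGGCGG does occur near the end of the Axl window, so its count of 0 holds for the longer string only. The other windows held 4 matches for Gas6, 2 for Pros1 and 1 for Tyro3, and 23.4% of 32851 mouse promoters of the same length held a match. On both strands, 3 further motifs were searched. These were GAAA and GAAA spaced by 2 bases, a core of sites bound by interferon regulatory factors, GGAA and GAAA spaced by 2 bases, the composite site of an ETS factor with IRF8, and AGGTCA repeated after 4 bases, the direct repeat bound by the liver X receptors. None of them was present in any of the 5 windows (0 matches), while 2.98%, 2.30% and 0.0152% of all promoters held one. Zero matches says only that these letters are not in these windows.

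Total reads ranged from 20427558 to 36022954 without laser and from 37133297 to 45919042 after laser, and the level of 3 reads, taken as the floor, lay between 0.0653 and 0.147 CPM. The floor covers counting error only, and the 95% intervals of differences come from the spread between libraries. Irf8 itself had 508.7 ± 20.6 CPM without laser (SD, n = 3) and 496 ± 57.6 CPM after laser (SD, n = 4), listed only jointly with an overlapping gene, so the genotype rests on the labels. Of 12 microglia markers, 11 were tested and 0 were called by limma (3 at an unadjusted p under 0.05, 0 by edgeR and 1 by DESeq2), and their summed level ranged from 29887 to 35398 CPM without laser and from 27758 to 36282 CPM after it. Of 15 rod photoreceptor markers, 14 were called lower in lasered libraries by limma, beside 3.07% of all tested genes. The mean of the remaining marker was lower too, but its groups overlapped. edgeR and DESeq2 each called all 15, beside 7.33% and 13.3% of all tested genes in either direction. The summed levels were 2251, 20191 and 5780 CPM in unlasered libraries 1 to 3 against 321 to 1020 CPM after laser.

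The Axl receptor was higher after laser. In unlasered libraries 1 to 3, Axl had 34.1, 41.4 and 55.0 CPM. In lasered libraries 1 to 4 it had 240.2, 260.4, 104.3 and 68.0 CPM. Every lasered library lay above every unlasered library, and lasered libraries 1 and 2 lay far above lasered libraries 3 and 4. The mean was 43.5 ± 10.6 CPM in unlasered libraries (SD, n = 3) and 168 ± 96.3 CPM in lasered libraries (SD, n = 4). On the log2(CPM + 1) scale the difference was 1.74 with a standard error of 0.44 (adjusted p = 0.0478, limma and Benjamini-Hochberg adjustment over 17496 genes), which is a fold of 3.35 with a 95% interval of 1.68 to 6.66. Of the 4 members tested, Axl was the one called, beside 6.93% of all tested genes called in either direction and 3.86% called higher. It ranked 58 by the size of its rise among all tested genes. Among all tested genes, 10.4% had every lasered library above every unlasered library and 10.7% had the reverse. In bulk RNA of sorted cells, fewer cells of a type and less RNA per cell cannot be told apart.

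**Figure D1:**
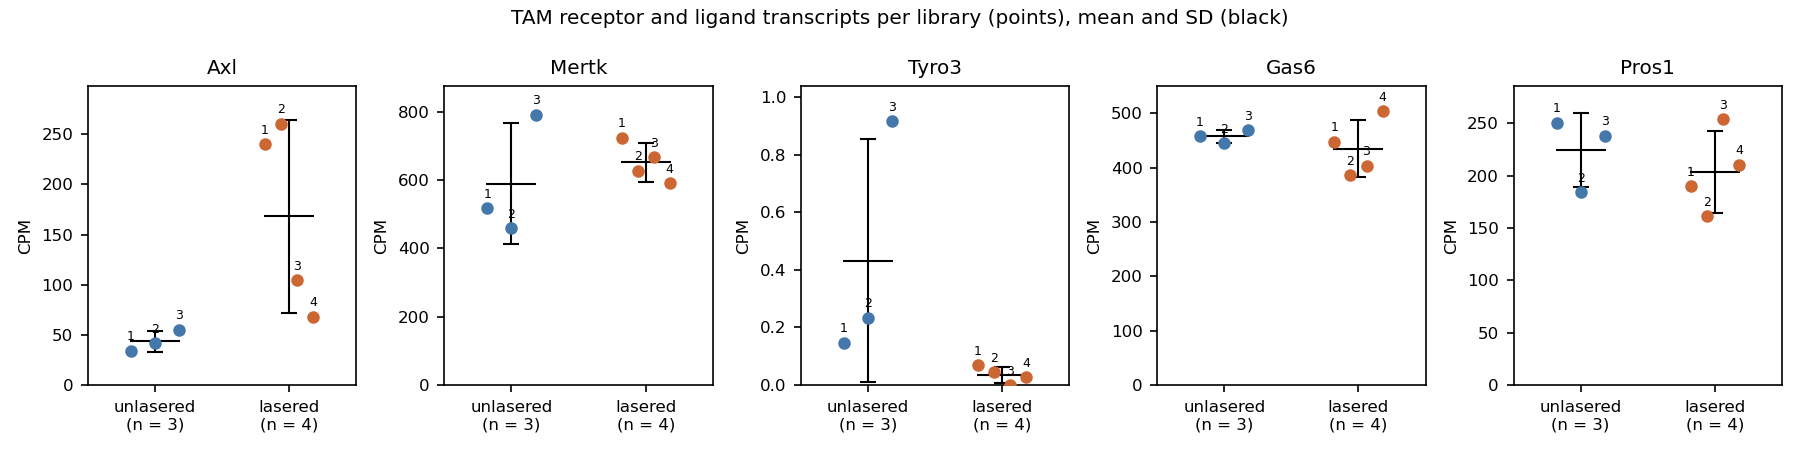
Level in CPM of each member in every library, with points numbered by replicate and the mean with its SD in black. The y axes start at 0 and differ between genes. The 4 lasered libraries lie between 68.0 and 260.4 CPM for Axl, above all 3 unlasered libraries, whereas the groups overlap for Mertk, Gas6 and Pros1.

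The Axl call was close to the threshold. It was lost when unlasered library 1 (adjusted p = 0.132), 2 (0.109) or 3 (0.0613) or lasered library 1 (0.112), 2 (0.112) or 3 (0.0785) was left out, and it was kept without lasered library 4 (adjusted p = 0.0216, limma with Benjamini-Hochberg adjustment throughout). The direction was the same in all 17 alternatives, with log2 fold changes from 1.47 to 2.11 and adjusted p-values between 2.29e-05 and 0.132, and 7 of the 17 kept the call. The count models on recovered reads were among these, with a log2 fold change of 1.94 in edgeR (adjusted p = 0.0323), which called 7.33% of all tested genes, and of 1.95 in DESeq2 (adjusted p = 2.29e-05), which called 13.3%.

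**Figure D2:**
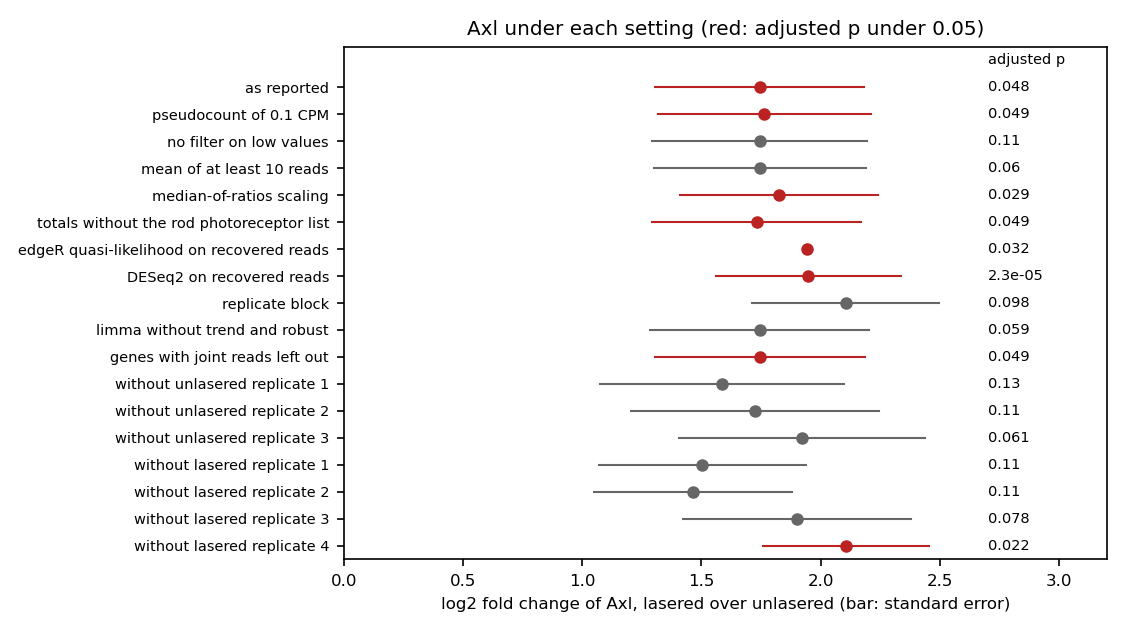
Log2 fold change of Axl, lasered over unlasered, in the reported analysis and in each of the 17 alternatives, with the standard error as a bar and the adjusted p on the right. Red marks an adjusted p under 0.05. edgeR gives no standard error here. All values lie above 0, from 1.47 to 2.11, while the adjusted p crosses 0.05 between settings.

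Mertk, the receptor of steady-state clearance, ranked 162 among all genes by its mean CPM, a rank that takes no account of gene length. Its levels were 518, 459 and 792 CPM in unlasered libraries 1 to 3 and 724, 628, 667.0 and 591 CPM in lasered libraries 1 to 4. All 4 lasered values fell inside the range of the unlasered group, whose spread came from unlasered library 3. The means were 590 ± 178 CPM (SD, n = 3) and 653 ± 57.0 CPM (SD, n = 4). The log2 difference was 0.18 with a standard error of 0.18 and a 95% interval of -0.23 to 0.59 (adjusted p = 0.61 from limma), so a fold between 0.853 and 1.51 is inside the interval. Without unlasered library 3 the difference was 0.42 (adjusted p = 0.0672 from limma).

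Tyro3, the receptor best known from neurons, was close to the floor in rMG and ranked 23057 by its mean. It had 3, 8 and 33 reads in unlasered libraries 1 to 3 and 3, 2, 0 and 1 reads in lasered libraries 1 to 4. In CPM these are 0.147, 0.234 and 0.916 in the unlasered group and 0.068, 0.0445, 0 and 0.0269 in the lasered group. The lasered libraries all lay at or under the floor of 3 reads, and unlasered library 1 lay at it. Although each lasered CPM was below each unlasered CPM, the read numbers overlapped at 3 reads, and the gene did not reach 1 CPM in 3 libraries and was not tested. Without that minimum the log2 difference was -0.43 with a standard error of 0.17 (adjusted p = 0.246 from limma). The rod photoreceptor sum was also higher in every unlasered library than in any lasered one. That sum was highest in unlasered library 2 (20191 CPM), whereas Tyro3 was highest in unlasered library 3, where the sum was 5780 CPM. The part of photoreceptor RNA in the Tyro3 reads was not tested.

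Of the ligands, Gas6, which binds all TAM receptors, ranked 252 by its mean. It had 458, 445 and 469 CPM in unlasered libraries 1 to 3 and 448, 386, 404 and 503 CPM in lasered libraries 1 to 4. The unlasered libraries sat close together within the wider range of the lasered group. The means were 457 ± 11.8 CPM (SD, n = 3) and 435 ± 52.4 CPM (SD, n = 4). The log2 difference was -0.08 with a standard error of 0.12 and a 95% interval of -0.35 to 0.19 (adjusted p = 0.753 from limma), and with median-of-ratios scaling it was 0.0037 (adjusted p = 0.991 from limma), so Gas6 had no stable direction.

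Pros1, the ligand of MERTK and TYRO3 that also circulates as an anticoagulant, ranked 675 by its mean. Its unlasered libraries 1 to 3 had 250.5, 184 and 238 CPM, and its lasered libraries 1 to 4 had 190, 161, 254 and 210.5 CPM. The groups overlapped, with the highest value in lasered library 3 and the lowest in lasered library 2. The means were 224 ± 35.3 CPM (SD, n = 3) and 204 ± 39.1 CPM (SD, n = 4). The log2 difference was -0.14 with a standard error of 0.18 and a 95% interval of -0.54 to 0.25 (adjusted p = 0.687 from limma).

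Levels of the members were set against each other after division by the summed length of their exons, 5033 bases for Axl, 4336 for Mertk, 6198 for Tyro3, 2548 for Gas6 and 4088 for Pros1. On this scale the order in unlasered libraries was Gas6, Mertk, Pros1, Axl and Tyro3. The level per kilobase of exons was 179 ± 4.64 CPM for Gas6, 136 ± 41.0 CPM for Mertk, 54.9 ± 8.63 CPM for Pros1 and 8.64 ± 2.11 CPM for Axl (SD, n = 3 each). Gas6 exceeded Mertk within each of the 3 libraries, but by a ratio of only 1.01 in library 3, and the ranges of both genes overlapped. Pros1 and Axl did not overlap there, and Tyro3 was last at 0.0697 ± 0.068 CPM per kilobase.

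In lasered libraries Gas6 had 171 ± 20.6 CPM per kilobase of exons, Mertk 150.5 ± 13.1, Pros1 49.9 ± 9.56 and Axl 33.4 ± 19.1 (SD, n = 4 each). Gas6 again exceeded Mertk in each of the 4 libraries with overlapping ranges. Pros1 exceeded Axl in 2 of 4 libraries, and their ranges overlapped. Whether introns were counted is not given in the sources used here, and if they were, the gene span is the fitting length. By span, the mean level in lasered libraries was 14.9 CPM per kilobase for Gas6, 6.28 for Mertk, 5.35 for Axl and 2.72 for Pros1. Gas6 was above Mertk in 4 of 4 lasered libraries on this scale, Mertk was above Axl in 2 of 4 and Axl above Pros1 in 2 of 4, so the place of Axl beside Mertk and Pros1 differed between libraries.

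Per kilobase of exons, Mertk made up most of the receptor transcripts in every library. Its share of the 3 receptors on this scale was 94.6%, 92.8% and 94.3% in unlasered libraries 1 to 3. In lasered libraries 1 to 4 the Mertk share was 77.8%, 73.7%, 88.1% and 91.0%, below each unlasered library. The Axl share was correspondingly 6.07 ± 0.991% in unlasered libraries (SD, n = 3) and 17.4 ± 8.24% in lasered libraries (SD, n = 4). The ratio of Mertk to Axl per kilobase ranged from 12.9 to 17.6 without laser and from 2.80 to 10.1 after laser. By gene span the Mertk share was 76.9% to 82.0% without laser and 47.7%, 42.2%, 65.9% and 72.4% in lasered libraries 1 to 4, so that Axl exceeded Mertk in lasered libraries 1 and 2. On both scales every lasered library had a lower Mertk share than every unlasered library. These shares follow the Axl values and were given no test of their own. Among the ligands, Gas6 took 76.7 ± 2.54% without laser (SD, n = 3) and 77.4 ± 3.72% after laser (SD, n = 4), with overlapping ranges.

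**Figure D3:**
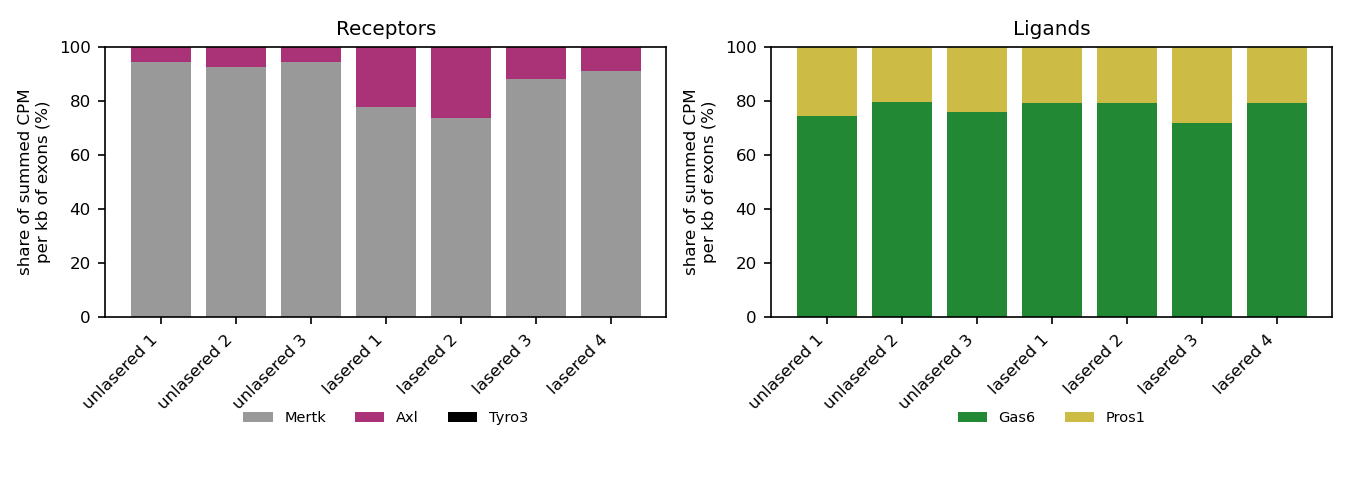
Share of each gene in the summed CPM per kilobase of exons in every library, for the 3 receptors on the left and both ligands on the right, as stacked bars from 0 to 100%. The Axl share ranges from 5.36% to 7.20% in unlasered and from 9.01% to 26.3% in lasered libraries, Tyro3 is too low to see, and the Gas6 share lies between 71.8% and 79.5% in all libraries.

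The wider pathway was followed in 7 lists with 49 genes, of which 44 were tested. Of these, 3 rose and 3 fell after laser, or 13.6% in either direction against 6.93% of all tested genes (3.86% higher and 3.07% lower), with a median log2 difference of 0.17 against -0.014 over all tested genes. The count was 12 without unlasered library 3, where 1248 of all tested genes were called, and 3 without lasered library 2, where 264 were called, against 1213 with all libraries.

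Gas6 and protein S need gamma-carboxylation for their Gla domain. None of the 3 genes of this list was called by limma, edgeR or DESeq2, or had an unadjusted limma p under 0.05 (0 each). Ggcx, the carboxylase, had 16.7 ± 1.57 CPM without laser and 16.8 ± 4.27 CPM after it, and Vkorc1l1, a vitamin K epoxide reductase, had 25.4 ± 6.06 and 22.2 ± 2.46 CPM (SD, n = 3 and 4). The proteases that shed AXL and MERTK from the cell surface were not called either by any of these (0 of 2 each). Adam10 had 361 ± 86.3 and 402 ± 31.9 CPM, and Adam17 had 183 ± 37.1 and 228.5 ± 35.4 CPM, with overlapping groups for both.

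Of 4 other MERTK ligands and phosphatidylserine bridges, 2 fell after laser, Tulp1 and Tub. Both are related ligands of MERTK that are themselves retinal proteins, and Tulp1 is made in photoreceptors. Tulp1 had 20.7, 166 and 46.5 CPM in unlasered libraries 1 to 3 and 9.06, 3.92, 2.96 and 2.75 CPM in lasered libraries 1 to 4. All lasered values of Tulp1 lay below all unlasered ones, a log2 difference of -3.42 with a standard error of 0.62 (adjusted p = 0.0172 from limma). Tub had 2.69, 16.3 and 9.11 CPM without laser and 2.42, 0.356, 1.68 and 0.242 CPM after it, a log2 difference of -2.12 with a standard error of 0.54 (adjusted p = 0.0490 from limma).

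The highest Tulp1 and Tub values were in unlasered library 2, which also had the highest rod photoreceptor sum, 20191 CPM. The part of photoreceptor RNA in both was not tested. The Tulp1 call was lost without lasered library 2 (adjusted p = 0.0562) or 3 (0.0537). The Tub call was kept only in 4 of 17 alternatives, and of the libraries left out in turn only without unlasered library 1 (adjusted p = 0.0188), against 0.0635 to 0.129 without any of the others (limma). Lgals3, which encodes galectin-3, and Mfge8, the bridge to alpha-v integrins, were not called. Lgals3 varied widely, with 53.2, 111, 22.0 and 8.08 CPM in lasered libraries 1 to 4 against 30.9 ± 19.3 CPM without laser (SD, n = 3). Mfge8 had 124 ± 54.1 CPM without laser and 87.3 ± 9.99 CPM after it (SD, n = 3 and 4).

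Of 13 other phosphatidylserine receptors and alpha-v integrin partners, 9 were tested and 1 rose. This was Cd300lf, an inhibitory receptor of the CD300 family, with 14.2, 15.4 and 17.1 CPM in unlasered libraries 1 to 3 and 30.6, 38.0, 35.3 and 33.5 CPM in lasered libraries 1 to 4. The groups were apart and each was narrow, in contrast to Axl. The log2 difference of Cd300lf was 1.09 with a standard error of 0.15 (adjusted p = 0.00749 from limma). Itgb5, an integrin beta chain, had 1975 ± 299 and 2380 ± 203 CPM, and the scavenger receptor gene Stab1 had 541 ± 303 and 536 ± 101 CPM, both with overlapping groups.

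Of 16 engulfment genes downstream of these receptors, 15 were tested, 1 rose and 1 fell. Rac2, the haematopoietic Rac GTPase, had 239, 228 and 267 CPM in unlasered libraries 1 to 3 and 489, 474, 499 and 448 CPM in lasered libraries 1 to 4. The lasered Rac2 values lay clearly above the unlasered ones, with a log2 difference of 0.97 and a standard error of 0.11 (adjusted p = 0.00461 from limma). Rac1, the ubiquitous family member, had 657 ± 29.7 and 685 ± 20.0 CPM (SD, n = 3 and 4) with a log2 difference of 0.06 (adjusted p = 0.765 from limma). Gulp1, an adaptor of engulfment receptors, fell from 9.71 ± 0.732 CPM to 3.13 ± 0.531 CPM, a log2 difference of -1.38 with a standard error of 0.18 (adjusted p = 0.00749 from limma), and part of its reads were listed jointly with another gene. Elmo1, which activates Rac together with a DOCK protein, had 460.4 ± 159 and 573 ± 33.1 CPM and was not called.

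TAM receptors signal together with the type I interferon receptor to induce SOCS proteins, which damp cytokine signalling. Of 5 genes of this feedback, Socs3 rose and 4 were not called. Socs3 had 68.4, 59.9 and 92.3 CPM in unlasered libraries 1 to 3 and 164, 166, 126 and 134 CPM in lasered libraries 1 to 4. All lasered libraries lay above the unlasered ones, with a log2 difference of 1.01 and a standard error of 0.18 (adjusted p = 0.0160, and 0.0562 without lasered library 2, from limma). Ifnar1 had 148 ± 31.0 and 162 ± 14.1 CPM, and Ifnar2 449 ± 37.6 and 413 ± 24.1 CPM (SD, n = 3 and 4). Of 6 nuclear receptors that act on Mertk or Axl, 0 were called by limma, edgeR or DESeq2, and 0 had an unadjusted limma p under 0.05. Rxra, the partner of the liver X receptors, had 76.3 ± 26.8 and 83.7 ± 16.6 CPM, and Nr3c1, the glucocorticoid receptor, had 267 ± 53.4 and 213 ± 12.2 CPM.

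**Figure D4:**
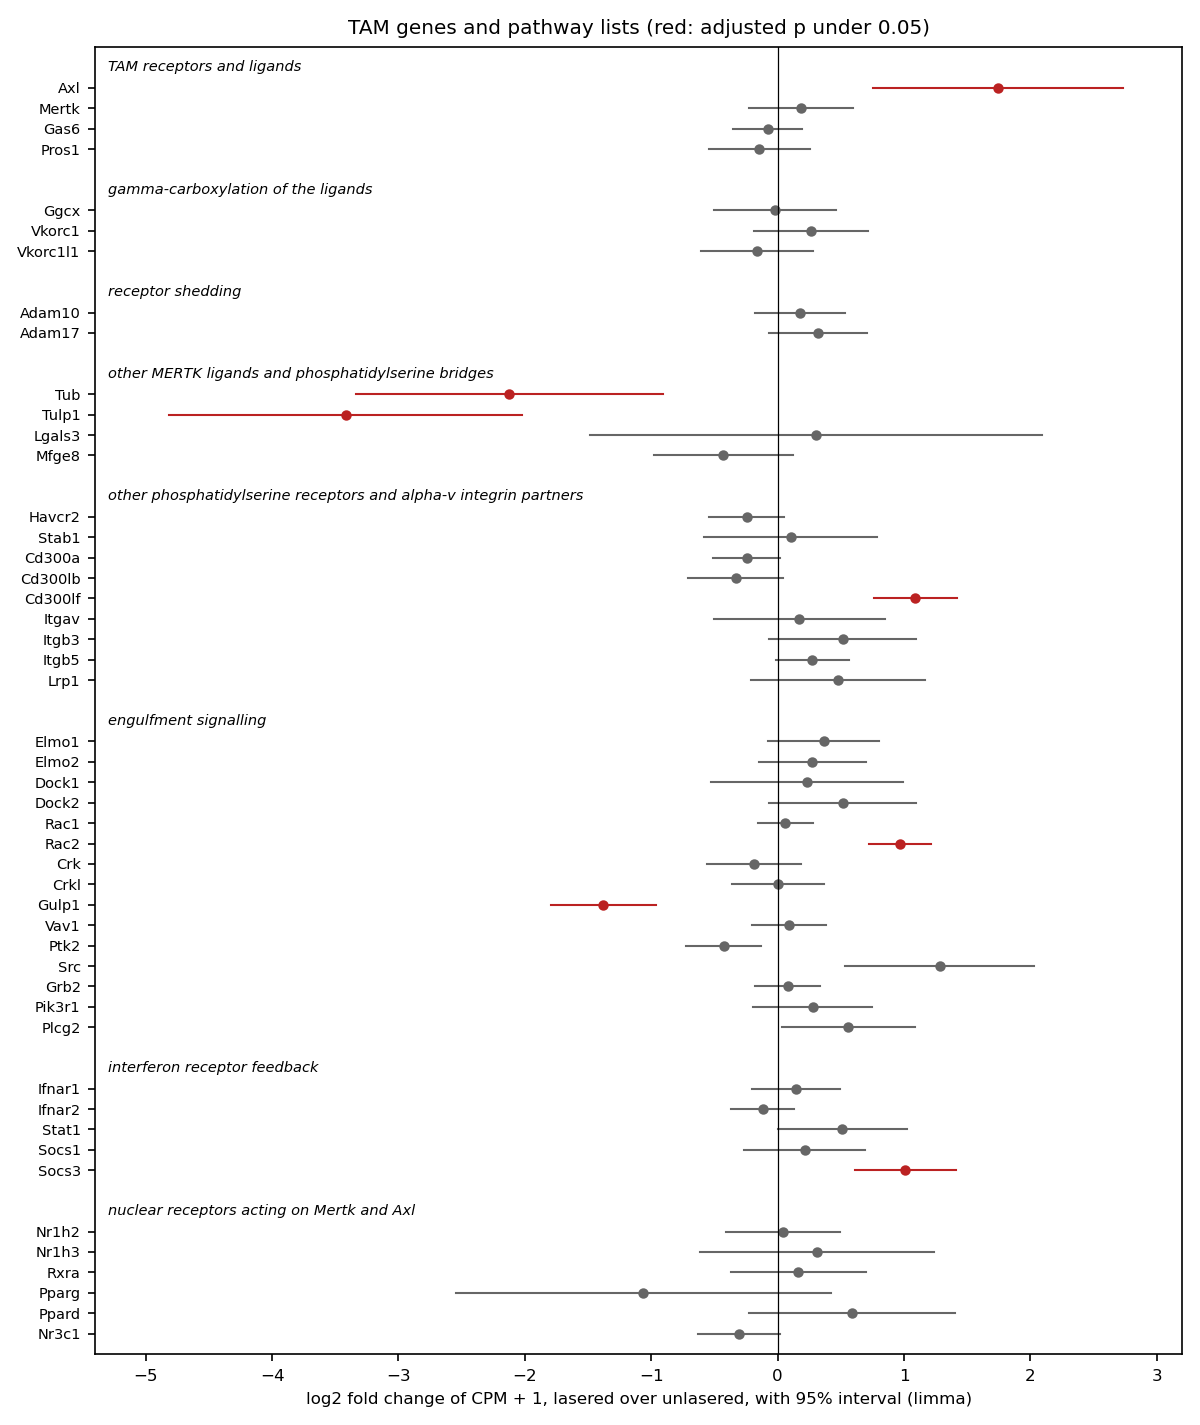
Log2 fold change with its 95% interval from limma for the 4 tested members and the 44 tested pathway genes, grouped by list. Red marks an adjusted p under 0.05. Axl, Cd300lf, Rac2 and Socs3 lie to the right of 0, and Tub, Tulp1 and Gulp1 to the left, while the intervals of Mertk, Gas6 and Pros1 include 0.

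The order of the lasered libraries for Axl was set beside markers of other myeloid cells. The summed level of 6 dendritic cell markers was 30.8, 18.3 and 40.8 CPM in unlasered libraries 1 to 3 and 126, 132, 34.1 and 31.0 CPM in lasered libraries 1 to 4. Lasered libraries 1 and 2 stood out here as they did for Axl, while lasered libraries 3 and 4 were within the unlasered range. Of the 5 dendritic cell markers tested, 0 were called by limma, 2 had an unadjusted p under 0.05, 1 was called by edgeR and 2 by DESeq2. Within the list, Ccr7 had 74.8, 68.5, 5.34 and 3.10 CPM in lasered libraries 1 to 4 and at most 4.16 CPM in unlasered libraries, whereas Clec9a was at most 0.245 CPM in any library. Zbtb46, a transcription factor of dendritic cells, had 24.3 ± 11.1 CPM without laser and 24.7 ± 1.47 CPM after it (SD, n = 3 and 4).

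The 5 monocyte markers summed to 61.6, 21.4 and 66.6 CPM in unlasered libraries 1 to 3, and to 134, 182, 32.8 and 11.3 CPM in the lasered libraries, with 0 of 4 tested genes called by limma (1 at an unadjusted p under 0.05, 0 by edgeR and 1 by DESeq2). Ccr2 carried most of this in the lasered group, with 81.5, 128, 19.7 and 7.57 CPM. Ly6c2, the antigen gene excluded by the sort, was at most 0.891 CPM in any library. The 5 border macrophage markers summed to between 1177 and 1267 CPM without laser and between 597 and 960 CPM after laser, which is below in every library. Mrc1 and Pf4 carried most of this sum, and of the 5 only Pf4 was called, as lower. The list did not move as 1, since mean Cd163 was 66.5 CPM without laser and 66.2 CPM after it. Mean Cbr2 went the other way, from 5.55 to 11.9 CPM, and was not called (adjusted p = 0.0799 from limma). The 5 mural cell markers summed to between 2.02 and 6.50 CPM without laser and between 22.4 and 41.1 CPM after it, of which Cspg4 alone made up 20.0 to 37.1 CPM, while Kcnj8 was at 0 in the lasered libraries. The 8 endothelial markers summed to between 42.5 and 76.6 CPM without laser and between 24.8 and 35.6 CPM after it. Of the 4 endothelial markers tested, Egfl7 alone was called, with 24.3 ± 5.51 CPM without laser and 7.59 ± 2.54 CPM after it (SD, n = 3 and 4). Its log2 difference was -1.58 (adjusted p = 0.0116 from limma), and it had reads listed jointly with another gene. The summed level of the 6 Mueller glia markers overlapped between groups. Of the 5 tested, Gfap alone was called by limma, and 0 were called by edgeR or by DESeq2. Gfap rose from 0.509 ± 0.882 to 3.18 ± 0.807 CPM (log2 difference 1.59, adjusted p = 0.0311 from limma), with 0 CPM in unlasered libraries 1 and 2. Slc1a3 went the other way, with 388 ± 191 and 123 ± 111 CPM, and was not called (adjusted p = 0.155 from limma). For the pigment epithelium, where Mertk has its best-known role, 10 markers summed to between 14.2 and 20.1 CPM in all 7 libraries, with 0 of 3 tested genes called by limma (1 at an unadjusted p under 0.05, 0 by edgeR and by DESeq2). Tyr and Best1 carried most of this sum. Of the other markers, 7 were too low to test, and Pmel, which was tested, was at most 3.37 CPM in any library. Rpe65 was at most 0.343 CPM and Lrat at most 0.147 CPM. The part of these cells in the Axl result was not tested.

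The genes whose pattern was most like each member were ranked by the root-mean-square difference of log2(CPM + 1) over the 7 libraries after centring, among 10287 tested genes with a mean of at least 10 CPM. No gene lay within 0.1 of Axl (0), against 55 genes for Mertk, 67 for Gas6 and 13 for Pros1. The difference is not scaled by a gene's own spread, so these counts also depend on how widely each member varies, and Axl varied most. The nearest to Axl were Gm42418 at 0.214, 2900026A02Rik at 0.241 and AC165092.1 at 0.257, of which the first and last are annotated as lincRNA. Gm42418, whose locus overlaps ribosomal RNA repeats, had 105, 129 and 144 CPM in unlasered libraries 1 to 3 and 793, 535, 295 and 212 CPM in lasered libraries 1 to 4. Its lasered libraries fell in a similar order, although library 1 was above library 2, unlike for Axl. Whether RNA quality or carried-over ribosomal RNA moved with Axl was not tested beyond these values. The nearest genes were Agap1 (0.0256), Stk4 (0.0327) and Klhl24 (0.0373) for Mertk, Tsc22d4 (0.0445), Mia3 (0.0644) and Tbck (0.0674) for Gas6, and Slc35a5 (0.0608), Tmem69 (0.0783) and Cep57 (0.0794) for Pros1.

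**Figure D5:**
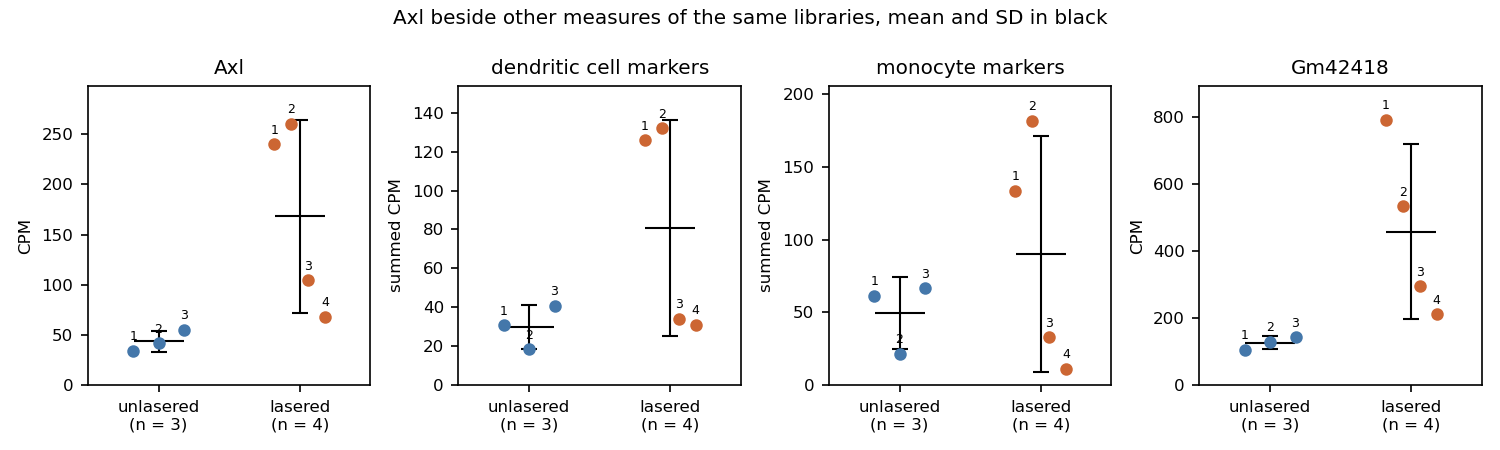
Axl, the summed dendritic cell and monocyte markers and Gm42418 in CPM in every library, with points numbered by replicate and the mean with its SD in black. In all 4 panels lasered libraries 1 and 2 lie above lasered libraries 3 and 4. For Axl and Gm42418 the lasered libraries are all above the unlasered ones, whereas the groups overlap for both marker sums.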

How the data were processed

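RNA of sorted rMG was sequenced from 7 libraries. As the authors describe, cutadapt trimmed adapters, FastUniq dropped duplicates, bowtie2 aligned the reads and HTSeq counted them by gene, and the deposited values are headed TPM. Tests of the file showed CPM: within a library every deposited value was a whole multiple of 1 read (100% of values, tolerance 0.00006 CPM), whatever the gene length. Values were used without further scaling. Groups were taken from the labels, which do not say whether libraries came from separate animals, so p-values measure the spread between these pools. The members and lists were chosen with earlier results of these data known.

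Both groups were compared on log2(CPM + 1) by limma 3.58.1 (R 4.3.3, options trend and robust, two-sided). The 17496 genes tested reached 1 CPM in at least 3 libraries, and p-values were adjusted over all of them by the Benjamini-Hochberg method, with a threshold of 0.05. Fold changes on this scale understate those of low genes. The test was also run on simulated reads with the same dispersion for every gene and independent libraries. Such reads do not cover genes that vary as widely as Axl, so nothing is drawn from them here. Alternatives were a pseudocount of 0.1, no filter, a mean of at least 10 reads, median-of-ratios scaling, totals without the rod list, edgeR 4.0.16 and DESeq2 1.42.0 on recovered reads, limma without trend and robust, the replicate number as a block, genes with joint reads left out and each library left out. Joint reads are merged into a gene's value, so such genes were dropped whole. In the pathway lists, genes with an adjusted p under 0.05 and the pair with the highest mean were named. Of the marker lists other than the rod list, which is given by its sum and counts, genes with an adjusted p under 0.05 were named, and further markers after their values were seen. Coordinates and exon lengths were taken from GENCODE M21 (GRCm38), to which 99.6% of 38408 genes with an identifier of their own were matched. Promoters were RefSeq's, and motifs were searched on both strands. The labels do not say whether the numbers 1 to 3 pair libraries. Same-numbered libraries deviated from their group means with correlations of -0.183, -0.126 and -0.0234. Deviations within groups this small depend on each other, so these values cannot decide whether a day or batch was shared.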

Additional observations from a re-analysis of the deposited data

Results flagged for a closer look

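Of 25 levels screened in the 4 lasered libraries, 1 had a library far from the other 3. Ifnar2, a chain of the type I interferon receptor, had 449.4 CPM in lasered library 3 against 399 to 403 CPM in the others, a gap of 0.932 of the whole range. The gap needed to be listed here is smaller than this, and chance alone gives a gap past that limit in about 1 of 20 groups. Ifnar2 was not called between groups, and it had reads listed jointly with another gene.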

How the results depend on the processing

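Mertk and Pros1 kept their direction and stayed above the threshold in all 17 alternatives. Gas6 did so except with median-of-ratios scaling, where its log2 difference was 0.0037 (adjusted p = 0.991, limma). Axl kept its direction but not its call without a filter (1.74, adjusted p = 0.110), with a mean of at least 10 reads (1.74, 0.0605), without trend and robust (1.74, 0.0592) and with the replicate number as a block (2.11, 0.0979), all from limma, and the count of members called was then 0. With the block, 0 pathway genes and 3 of all tested genes were called. The 1213 calls over all tested genes became 385 without a filter and 2318 with DESeq2. With each library left out in turn, the log2 differences ranged from 1.47 to 2.11 for Axl, from 0.02 to 0.42 for Mertk, from -0.15 to -0.02 for Gas6 and from -0.28 to -0.04 for Pros1. Members called then ranged from 0 to 1, pathway genes from 3 to 12 and all tested genes from 264 to 1248, the lowest without lasered library 2. Leaving out lasered library 4, which has no unlasered library of the same number, gave the same Axl difference as the block. A design of 3 against 4 pools and a call near 0.05 limit what can be said of Axl, and read depth limits Tyro3. Beyond the tested genes and samples each setting removes, the causes were not tested.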
